A study of Homo sapiens with 12 samples.

Results

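Mitochondrial ribosomal protein genes were examined in MEC1 and JVM2, established human neoplastic B-cell lines, with low (CTRL) or high (2B17) levels of UGT2B17, a UDP-glucuronosyltransferase that conjugates steroids and lipids. Members were the genes whose symbol is MRPL or MRPS followed by a number and at most 1 letter from A to C. The same 77 genes met this rule in both count tables, of 22441 genes listed for MEC1 and 17144 for JVM2 (16052 in both, 23533 in either). All 77 passed the filter on low counts in both lines. By protein, 50 belong to the large subunit of the mitochondrial ribosome, 26 to the small subunit and 1 (MRPS36) was not assigned. A bacterial homolog is known for 47 and not for 28, and 2 were not assigned.

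Each line had 3 CTRL and 3 2B17 libraries from total RNA, depleted of ribosomal RNA. The MEC1-CTRL cells carried a stable shRNA against UGT2B17 and grew in puromycin, whereas MEC1-2B17 cells carried a pcDNA6 vector with the UGT2B17 coding sequence and grew in blasticidin. The JVM2-CTRL cells carried the empty pcDNA6 vector and the JVM2-2B17 cells the same vector with that coding sequence, both in blasticidin. In MEC1 the level of UGT2B17, the construct and the antibiotic therefore cannot be told apart. Library totals ranged from 31762649 to 37744991 counts in MEC1 and from 8809179 to 11231330 in JVM2, and errors were larger in JVM2 (median SE of a member's log2 fold change 0.079, against 0.045 in MEC1). The labels name the libraries of an arm only by replicate number and the study calls them biological replicates of 1 stable model; p-values measure the spread among those libraries.

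The label of each arm was checked on UGT2B17 itself. Levels are given in CPM (counts scaled to a common library size, with TMM factors), changes as log2 fold changes of 2B17 against CTRL with their standard error (SE), and a gene is called higher or lower at an adjusted p below 0.05 over all genes tested in the line. UGT2B17 was at 11.8, 10.8 and 10.4 CPM in the MEC1-CTRL libraries and 22.7, 20.6 and 20.1 CPM in the MEC1-2B17 libraries (log2 fold change 0.94, SE 0.0687, adjusted p = 2.02e-09). In JVM2 it was at 29.8, 26.2 and 27.4 CPM in the JVM2-CTRL libraries and 35.3, 45.3 and 35.6 CPM in the JVM2-2B17 libraries (log2 fold change 0.48, SE 0.105, adjusted p = 0.00481). The arms did not overlap in either line, and reads from the vector and from the cell's own gene were not separated. The B-cell markers MS4A1, CD79A, CD79B, PAX5 and CD22 were expressed in both lines and differed between arms. In MEC1, MS4A1 (-0.58), PAX5 (-0.17) and CD79B (-0.12) fell and CD79A (0.28) and CD22 (0.36) rose, on the log2 scale. In JVM2, MS4A1 (0.40) and CD22 (0.38) rose and CD79A (-0.39) fell. Of all 6 B-cell markers examined, each expressed in both lines, 2 rose and 4 fell in MEC1, and 3 rose and 1 fell in JVM2. In contrast, CD3E, CD3G and CD8A of T cells and CD14 of monocytes had 0 to 7 counts in any MEC1 library. Of the other monocyte and epithelial or fibroblast markers, EPCAM rose in MEC1-2B17 (30 to 45 counts in CTRL, 81 to 85 in 2B17) and CSF1R fell (23 to 34 against 11 to 20 counts). JVM2-2B17 replicate 2 stood apart from the other JVM2-2B17 libraries: the mean chi-square per gene was 8.35 and 8.58 between it and replicates 1 and 3, against 2.24 between the latter. In MEC1-CTRL, replicate 3 differed from replicates 1 and 2 by 8.41 and 6.77, against 2.50 between the latter.

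Mitochondrial ribosomes translate the few messengers of the mitochondrial genome, all for subunits of the respiratory chain and ATP synthase. Their proteins are encoded in the nucleus, made by cytosolic ribosomes and imported. Cytosolic ribosomal protein mRNAs, in contrast, begin with a run of pyrimidines at the cap (the terminal oligopyrimidine motif) through which mTOR signaling controls their translation, and promoters of mitochondrial ribosomal protein genes are known for sites of the factors NRF1, GABP (an ETS factor) and YY1.

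Start regions are shown for a selection of genes with 1 annotated promoter each, as examples of the start of transcription in the 2 families. The selection was taken from members called higher in 2B17 in both lines, members at the extremes and cytosolic genes with the largest changes. It does not hold all of these: MRPL14, which has 3 promoters, and RPL10 are among those not shown. The RefSeq promoter table (GRCh38.p14, 250 bases before the annotated start and 50 after) held 84 promoters of 68 members and 78 promoters of 63 of the 80 cytosolic genes. MRPL10, MRPL13, MRPL15, MRPL2, MRPL21, MRPL23, MRPL35, MRPS28 and MRPS36 had no entry. A run of at least 7 C or T on the sense strand reaching within 10 bases of the start was found in 61 of 78 cytosolic promoters (78.2%), in 16 of 84 member promoters (19.0%) and in 21.3% of all 35116 promoters in the table. The windows printed here run from 20 bases before the start to 10 bases into the transcript, with that run in capitals:
RPS18, chr6:33272055-33272084, plus strand: gatatcgcgtcacttccgCTCTCTCTTCCa
RPS3A, chr4:151099608-151099637, plus strand: tcgcgcgactcccacttccgCCCTTTTggc
RPS12, chr6:132814549-132814578, plus strand: ggcatgcgtgcggatgaggCCTCTTTCCCT
RPL35, chr9:124861948-124861977, minus strand: aggtcagccccgcctaCTTCCTCTTTCCCT
RPL7A, chr9:133348198-133348227, plus strand: attacccacaaTTCCCTTTCCTTTCTCTCT
MRPL45, chr17:38297148-38297177, plus strand: ctcagCTCCCTTCCCggcggcctttgcggg
MRPL11, chr11:66438839-66438868, minus strand: ctcacctgccctagcctaacgtgaggaccc
MRPS10, chr6:42217852-42217881, minus strand: ggaagcaatcctgagaggtcgggaccggca
MRPL41, chr9:137551859-137551888, plus strand: ggccgcggccaatcggagccgctcttgctg
The cytosolic windows all hold a run that covers or touches the start, while MRPL11, MRPS10 and MRPL41 have none there and that of MRPL45 ends upstream of it.

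For the factor motifs, the ETS core CCGGAAG, the YY1 core AAGATGGCG and the NRF1 core GCGCATGCG were searched on both strands. The ETS core lay in 32 of 84 member promoters (38.1%), 33.3% of cytosolic and 10.3% of all promoters. The YY1 core lay in 13 member promoters (15.5%), 6.41% of cytosolic and 1.75% of all promoters. The NRF1 core, as spelled, lay in 3 member promoters (3.57%), 1.28% of cytosolic and 1.92% of all. At least 1 of the 3 was found in 50.0% of member promoters, 39.7% of cytosolic and 13.1% of all promoters. The upstream 100 bases of 3 members are given with the ETS core (MRPS10 and MRPL27) or the NRF1 core (MRPL17, whose first site also matches on the other strand) in capitals:
MRPS10, chr6:42217862-42217961, minus strand: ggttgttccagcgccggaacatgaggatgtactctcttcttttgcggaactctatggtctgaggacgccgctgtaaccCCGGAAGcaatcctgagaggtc
MRPL27, chr17:50373185-50373284, minus strand: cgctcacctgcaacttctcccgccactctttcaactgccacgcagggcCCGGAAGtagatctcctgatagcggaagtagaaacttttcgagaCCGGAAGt
MRPL17, chr11:6683341-6683440, minus strand: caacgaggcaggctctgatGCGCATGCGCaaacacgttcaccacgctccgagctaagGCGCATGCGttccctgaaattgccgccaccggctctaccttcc
These letters are a description of the windows, and no binding was measured.

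Levels of the members were similar in order in the 2 lines. Per kilobase of the canonical transcript, the median member was at 39.4 CPM in MEC1-CTRL and 35.6 in JVM2-CTRL, against 1085 and 912 CPM per kb for the median cytosolic ribosomal protein gene. Across the 77 members the log2 levels of the lines correlated with Pearson's r = 0.92 (Spearman's rho 0.89), a description over genes that share libraries and transcript lengths. MRPL32, a large subunit protein matured by the mitochondrial m-AAA protease, was the most abundant in MEC1-CTRL (121 CPM per kb), followed by MRPL20 (115) and MRPS15 (113). In JVM2-CTRL the order was MRPL3 (131), MRPL51 (109) and MRPL20 (102). The lowest per kilobase in both were MRPL38, MRPL53 and MRPL42, between 2.20 and 6.65 CPM per kb. The canonical transcript of MRPL42 is annotated with 15557 bases, the longest of the family. Before division by length MRPL42 was at 104 CPM in MEC1-CTRL. Exons of MRPL38 and of MRPL53 overlap those of another coding gene on the same strand, and the part of this in their counts was not tested.

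As a sum, the family moved by less in either line than the cytosolic family. The 77 members summed to 4650 ± 98.6 CPM in MEC1-CTRL and 4696 ± 41.7 in MEC1-2B17 (SD, n = 3 each), a ratio of 1.01. In JVM2 the sum was 3967 ± 40.9 CPM in CTRL and 4154 ± 136 in 2B17, a ratio of 1.05. The arms overlapped in MEC1 (4566, 4626 and 4759 against 4742, 4686 and 4661 CPM) and in JVM2 (4014, 3938 and 3949 against 4191, 4267 and 4003 CPM, where the lowest 2B17 library was below the highest CTRL library). Cytosolic ribosomal protein genes, in the same libraries, summed to 85180 ± 596 and 92494 ± 333 CPM in MEC1 (ratio 1.09), and to 73187 ± 2460 and 98154 ± 3742 CPM in JVM2 (ratio 1.34), with no overlap of the arms in either line. The cytosolic sum was 18.3 ± 0.32 times that of the members in MEC1-CTRL and 19.7 ± 0.16 times in MEC1-2B17; in JVM2 it went from 18.4 ± 0.43 to 23.6 ± 0.50 times. Without JVM2-2B17 replicate 2 the JVM2 ratios were 1.03 for the members and 1.33 for the cytosolic genes. Sums in CPM are relative to all RNA counted, so less of a type of RNA and more of the others cannot be told apart, nor fewer cells of a type and less RNA per cell.

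**Figure D1:**
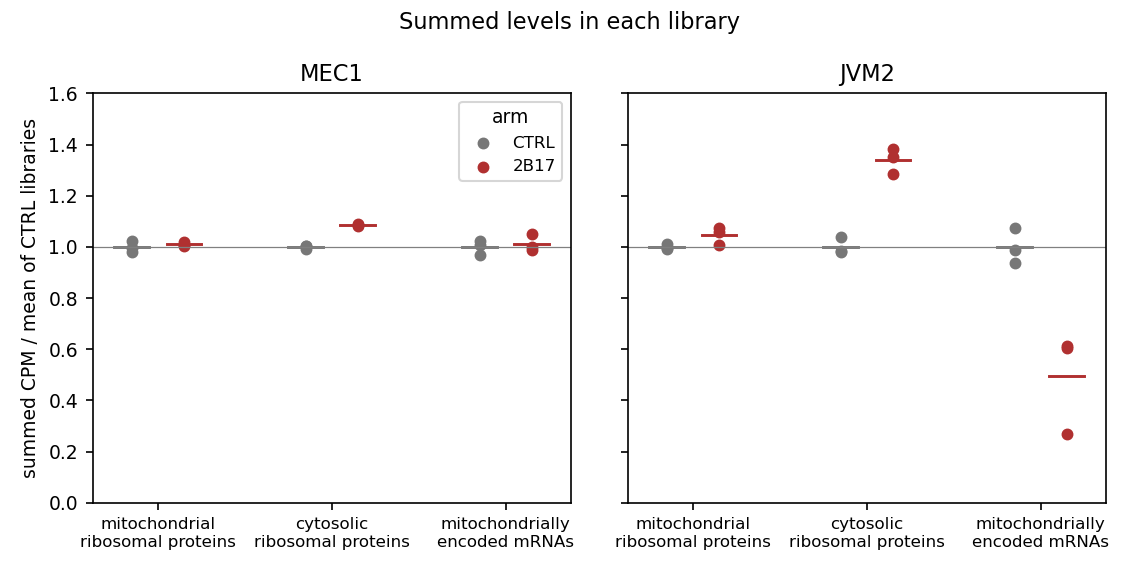
Summed CPM of the mitochondrial ribosomal protein genes, the cytosolic ribosomal protein genes and the mitochondrially encoded mRNAs in each library, divided by the mean of the CTRL libraries of the line; grey points are CTRL and red points 2B17 libraries, and short bars are means of 3. Members stay near 1 in both lines, cytosolic genes average 1.34 in JVM2-2B17, and the mitochondrial mRNAs of JVM2-2B17 replicate 2 lie at 0.267 against 0.603 and 0.612 in the other 2 libraries.

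In MEC1, single members moved in both directions. Of the 77, 14 were higher and 11 lower in MEC1-2B17 at an adjusted p below 0.05 (edgeR quasi-likelihood test), 25 in all, and 52 were not called. Of all 16581 genes tested, 41.7% were called, 20.0% higher and 21.6% lower, so that the members' shares (18.2% and 14.3%) lay below the background. The median log2 fold change of the members was 0.04, against 0.00 over all genes tested; 45 were positive and 32 negative. Libraries of the arms did not overlap for 36 members (18 higher, 18 lower), against 50.1% of all genes. The large subunit gave 8 higher and 7 lower of 50, and the small subunit 6 and 4 of 26. Among genes with a bacterial homolog 9 rose and 8 fell of 47, and among the mitochondria-specific ones 5 rose and 3 fell of 28. Under 8 other settings (tools, scaling, filters and the replicate block) and with each library left out, 9 of the 14 rises and 5 of the 11 falls were called in every case. Without MEC1-CTRL replicate 2, 9 members were higher, against 16.6% of all genes tested. Without MEC1-2B17 replicate 2, 7 were lower, against 18.8% of all genes tested.

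The largest rise among those called was that of MRPL10 (ENSG00000159111, chr17:47823272-47831541, GRCh38), which anchors the stalk where translation factors bind the large subunit: it was at 64.4, 65.4 and 60.4 CPM in the MEC1-CTRL libraries and 85.8, 88.1 and 93.0 CPM in the MEC1-2B17 libraries. Every 2B17 library lay above every CTRL library (log2 fold change 0.49, SE 0.0418, adjusted p = 1.79e-08). MRPL1, the protein of the L1 stalk on the side where spent tRNAs leave, was at 27.0, 28.1 and 26.6 CPM in the MEC1-CTRL libraries and 34.2, 34.9 and 33.1 CPM in the MEC1-2B17 libraries (log2 fold change 0.32, SE 0.0490, adjusted p = 2.79e-05), again with no overlap. MRPL45, which lies at the exit of the nascent chain and holds the ribosome to the inner membrane, was at 40.9, 40.8 and 41.7 CPM in the MEC1-CTRL libraries and 46.2, 52.2 and 48.7 CPM in the MEC1-2B17 libraries (log2 fold change 0.25, SE 0.0488, adjusted p = 3.37e-04). MRPL32 rose by 0.24 (adjusted p = 1.36e-05), MRPL11, part of the stalk base, by 0.21 (adjusted p = 1.41e-04), and MRPS33, a small subunit protein without a bacterial homolog, by 0.20 (adjusted p = 0.00156) on the log2 scale. The other 8 rises, among them MRPS18B, MRPS35 and MRPL30, were between 0.09 and 0.18.

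The largest fall was that of MRPL41 (ENSG00000182154, chr9:137551879-137552555), a large subunit protein without a bacterial homolog. It was at 56.0, 60.3 and 64.9 CPM in the MEC1-CTRL libraries and 41.1, 35.9 and 43.5 CPM in the MEC1-2B17 libraries (log2 fold change -0.59, SE 0.0628, adjusted p = 3.71e-07), so that all 2B17 libraries lay below all CTRL libraries. MRPL50, likewise mitochondria-specific, was at 57.6, 60.5 and 62.9 CPM in the MEC1-CTRL libraries and 47.4, 50.7 and 46.0 CPM in the MEC1-2B17 libraries (log2 fold change -0.33, SE 0.0476, adjusted p = 1.61e-05). MRPS6, of the small subunit, was at 62.6, 63.3 and 66.6 CPM in the MEC1-CTRL libraries and 54.9, 55.3 and 50.4 CPM in the MEC1-2B17 libraries (log2 fold change -0.26, SE 0.0453, adjusted p = 1.20e-04). Its exons overlap those of SLC5A3, an inositol transporter gene on the same strand that fell in MEC1-2B17 (log2 fold change -0.52) and in JVM2-2B17 (-0.59), so that reads of the 2 genes may be divided between them by the counting. MRPS2 had a log2 fold change of -0.18, MRPL27 of -0.18 and MRPL17 of -0.16, with adjusted p between 0.00478 and 0.0106; the 5 other falls lay between -0.16 and -0.11. MRPL10 and MRPL41 were the only members past 1.3-fold in MEC1. In all, exons of 32 members overlap those of another coding gene.

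**Figure D2:**
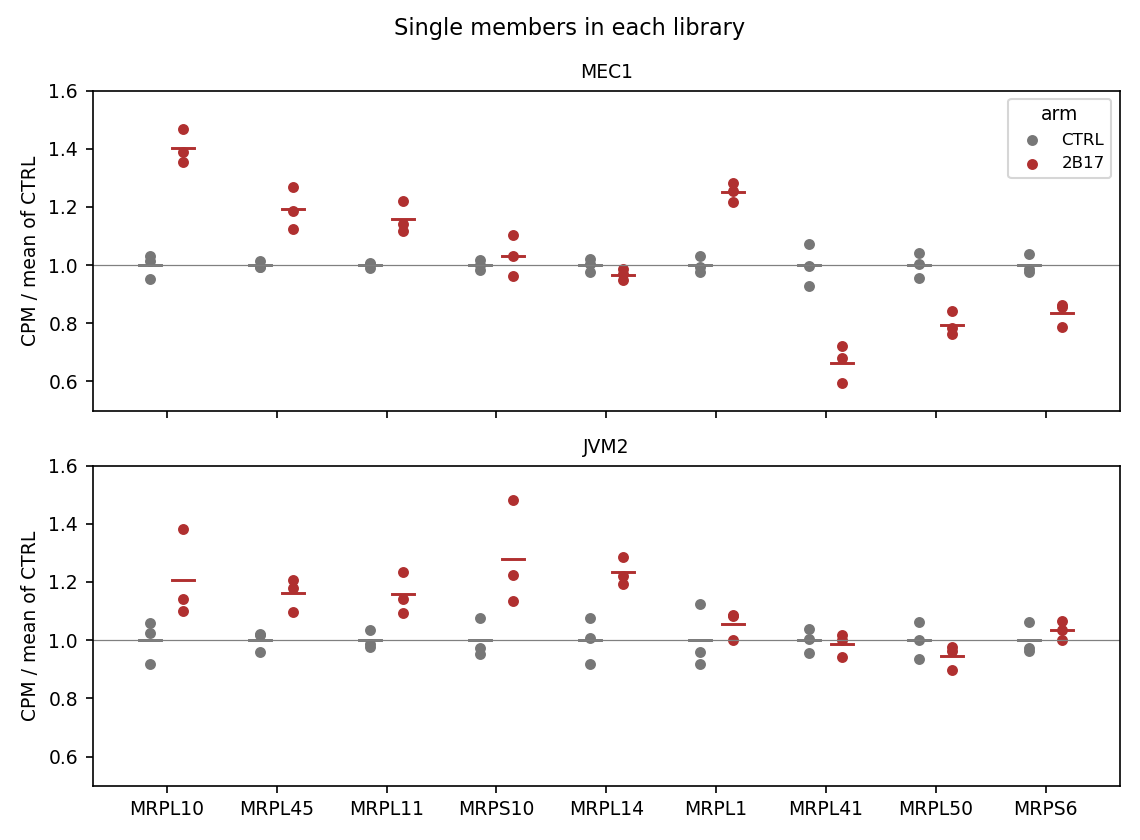
CPM of 9 members in each library, divided by the mean of the CTRL libraries of the line (MEC1 above, JVM2 below); grey points are CTRL and red points 2B17 libraries, and short bars are means of 3. MRPL10, MRPL45 and MRPL11 lie above CTRL in both lines, while MRPL41, MRPL50 and MRPS6 lie below CTRL in MEC1 and overlap it in JVM2.

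The 3 members on chromosome 9 (MRPL41, MRPL50 and MRPS2) all fell in MEC1-2B17, on a chromosome where most genes tested fell. On chromosome 9 as a whole, 634 genes could be tested in this line: 59.0% fell, 8.04% rose, and their median log2 fold change was -0.33. Within 5 Mb of MRPL41, 62 of 102 tested genes were lower and 2 higher (median -0.36). Within 5 Mb of MRPL50, 36 of 51 were lower and 2 higher (median -0.35), and within 5 Mb of MRPS2, 73 of 119 were lower and 3 higher (median -0.36). In JVM2 the median of 502 chromosome 9 genes was 0.00, and MRPL41 was at 34.9, 33.1 and 36.1 CPM in the JVM2-CTRL libraries and 35.3, 34.7 and 32.7 CPM in the JVM2-2B17 libraries (log2 fold change -0.02, adjusted p = 0.889). Of the 3 cytosolic ribosomal protein genes called lower in MEC1, RPL35 (-0.34) and RPL7A (-0.25) lie on chromosome 9 and RPL17 (-0.12) on chromosome 18. The other cytosolic genes on chromosome 9 were RPL12 (-0.05, not called) and RPS6, which rose by 0.19. With the chromosome 9 members set aside, 14 were higher and 8 lower of 74. The genes within 5 Mb of MRPL10 and MRPL1, the largest rises, had medians of 0.00 and -0.10. The part of the chromosome in these values was not tested.

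**Figure D3:**
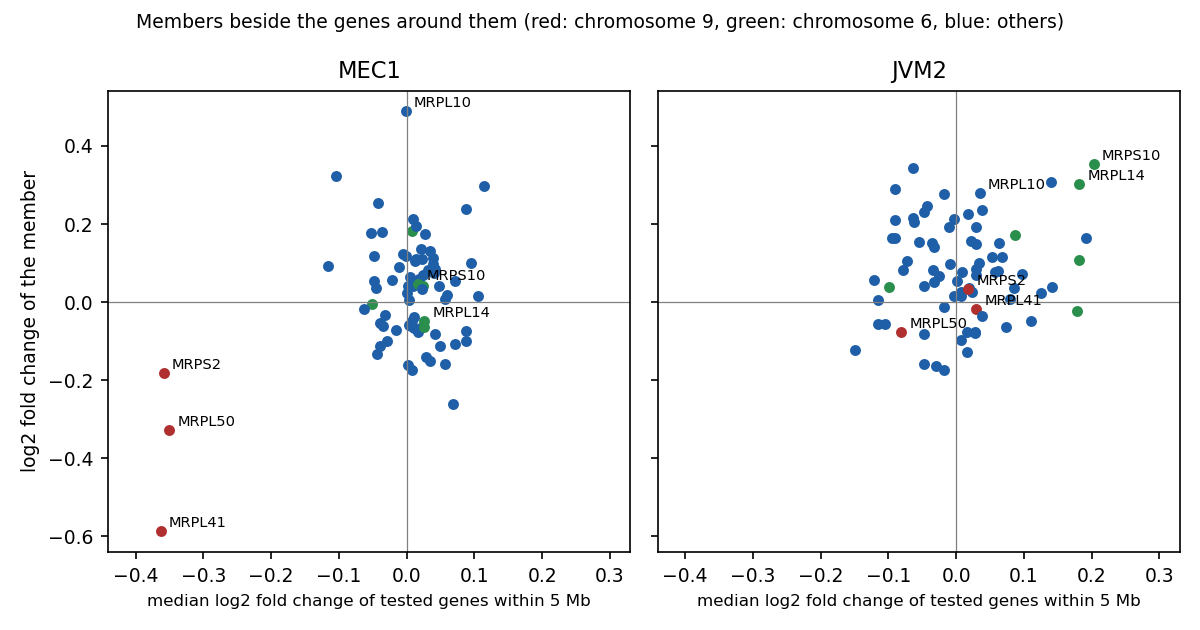
Log2 fold change (2B17 against CTRL) of each member on the vertical axis against the median log2 fold change of the genes tested within 5 Mb of it on the horizontal axis, in MEC1 (left) and JVM2 (right); red points are on chromosome 9, green on chromosome 6 and blue elsewhere. In MEC1 the 3 chromosome 9 members sit at surrounding medians of -0.35 and -0.36, and in JVM2 MRPS10 and MRPL14 sit at 0.20 and 0.18.

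In JVM2, few members passed the test, and all of those were higher in 2B17. Of the 77, 5 were higher, 0 lower and 72 not called by edgeR, against 29.3% of 13021 genes called, 14.1% higher and 15.3% lower. At an unadjusted p below 0.05, 19 members were higher and 1 lower by edgeR, and 11 higher and 0 lower by DESeq2. The share of all genes at that threshold was not counted, so these counts have no background. The median log2 fold change was 0.08, against 0.00 over all genes; 58 members were positive and 19 negative. Arms did not overlap for 18 members (16 higher, 2 lower), a share under the 45.2% of all genes. The largest change of any member was under 1.3-fold. The number of rises was 2 with DESeq2 and with the rule requiring both edgeR's exact test and DESeq2. Of all genes tested, 10.7% and 10.6% were called higher under these 2 settings. The number of rises was 2 without JVM2-CTRL replicate 2, 1 without JVM2-CTRL replicate 3 and 2 without JVM2-2B17 replicate 1. It was 8 without JVM2-2B17 replicate 2 (with MRPL28 lower) and 10 without JVM2-2B17 replicate 3. Of all genes tested in these fits, 9.79%, 9.63%, 11.3%, 16.3% and 12.2% were called higher, in the same order. None of the 5 rises was called in every setting.

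MRPS10, a protein of the small subunit head, was at 42.3, 46.8 and 41.5 CPM in the JVM2-CTRL libraries and 53.4, 64.5 and 49.4 CPM in the JVM2-2B17 libraries (log2 fold change 0.35, SE 0.0969, adjusted p = 0.0159), with replicate 2, the library that stood apart, the highest; without it the log2 fold change was 0.24. MRPL14, at the face where the subunits meet, was at 39.9, 34.0 and 37.3 CPM in the JVM2-CTRL libraries and 44.1, 47.6 and 45.1 CPM in the JVM2-2B17 libraries (log2 fold change 0.30, SE 0.0794, adjusted p = 0.0131). Both lie on the short arm of chromosome 6, where the genes tested within 5 Mb had median log2 fold changes of 0.20 around MRPS10 (69 genes, 37.7% higher) and 0.18 around MRPL14 (62 genes, 37.1% higher). MRPS18A and MRPL2 lie in the same stretch and had log2 fold changes of 0.11 and -0.02, neither called.

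MRPL10, MRPL45 and MRPL11 were called higher in both lines. In JVM2, MRPL10 was at 49.8, 43.3 and 48.2 CPM in the JVM2-CTRL libraries and 65.2, 51.8 and 53.7 CPM in the JVM2-2B17 libraries (log2 fold change 0.28, SE 0.0938, adjusted p = 0.0416). Without JVM2-2B17 replicate 1, the highest library, the log2 fold change of MRPL10 was 0.17 (adjusted p = 0.188), and the call was lost in 4 of the 6 fits that left out 1 JVM2 library. MRPL45 was at 38.9, 39.0 and 36.6 CPM in the JVM2-CTRL libraries and 45.0, 41.9 and 46.0 CPM in the JVM2-2B17 libraries (log2 fold change 0.22, SE 0.0730, adjusted p = 0.0422), and MRPL11 was at 74.5, 71.0 and 70.3 CPM in the JVM2-CTRL libraries and 82.2, 88.8 and 78.6 CPM in the JVM2-2B17 libraries (log2 fold change 0.21, SE 0.0652, adjusted p = 0.0290). No arms overlapped for these 3 genes, which were picked by their calls on these same libraries. Their rises in MEC1 held in every setting. In JVM2 the call of MRPL45 was kept in 1, and that of MRPL11 in 3, of the 6 fits that left out 1 JVM2 library. All 3 JVM2 calls were lost with DESeq2. Of the 77 members, 3 were thus called higher in both lines, 0 lower in both and 0 in opposite directions. Over the 12243 genes tested in both lines, these shares were 3.90%, 4.48% and 7.43%. The share of members called higher in both lines was thus about that of all genes. Another 22 members were called in MEC1 alone and 2 in JVM2 alone, against 3859 and 1418 of those 12243 genes. At an unadjusted p below 0.05 edgeR gave 6 members higher in both, 1 lower in both and 3 opposite, and DESeq2 5, 0 and 1. The same counts over all genes were not taken at that threshold. By adjusted p DESeq2 left 0 shared rises. The number was 1 without JVM2-CTRL replicate 1, 0 without JVM2-CTRL replicate 2, JVM2-CTRL replicate 3 or JVM2-2B17 replicate 1, and 4 (with 1 shared fall) without JVM2-2B17 replicate 2.

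Cytosolic ribosomal protein genes rose in both lines and by more in JVM2. Of 80 rows (79 symbols, RPL41 under 2 identifiers), 55 were higher and 3 lower in MEC1 (median log2 fold change 0.11), and 76 were higher and 0 lower in JVM2 by edgeR (median 0.42), where the count lower at an unadjusted p below 0.05 was 0 by edgeR and by DESeq2, which called 75 higher. In MEC1, DESeq2 alone called 56 higher, and the rule requiring both edgeR's exact test and DESeq2 called 36 higher. RPS18 was at 1399, 1347 and 1308 CPM in the JVM2-CTRL libraries and 2292, 2531 and 2032 CPM in the JVM2-2B17 libraries (log2 fold change 0.76, SE 0.071), and RPS3A had a log2 fold change of 0.68. The same genes had log2 fold changes of 0.14 and 0.12 in MEC1, where RPS12 (0.27) and RPL10 (0.26) rose most. All 77 members lay below the cytosolic median in JVM2, and for 65 the upper bound of the 95% interval was also below it. In MEC1 61 lay below the cytosolic median, 34 with the upper bound; 6 had a lower bound above it.

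**Figure D4:**
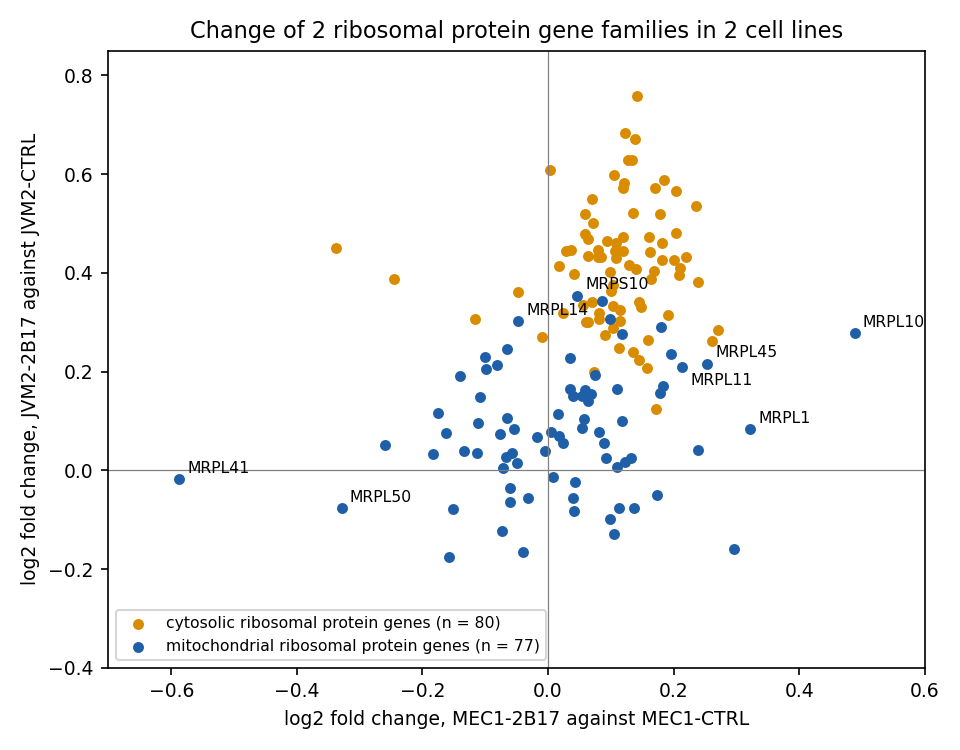
Log2 fold change (2B17 against CTRL) in MEC1 on the horizontal axis and in JVM2 on the vertical axis for each mitochondrial (blue, n = 77) and cytosolic (orange, n = 80) ribosomal protein gene. The cytosolic genes lie above 0 in JVM2 in every case with a median of 0.42, while the members spread around a median of 0.08, and MRPL41 lies farthest left.

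The change differed between the lines for 14 of the 77 members in the test of line by arm, against 32.0% of 15130 genes tested and 65 of the 80 cytosolic genes. Of the 14, 13 were more positive in JVM2 (MRPL41, MRPL14, MRPL33, MRPL39, MRPS6, MRPL13, MRPS10, MRPL48, MRPL36, MRPL27, MRPS11, MRPL50 and MRPL17) and 1, MRPL30, in MEC1. The difference (MEC1 minus JVM2) was -0.57, SE 0.110, adjusted p = 4.52e-04 for MRPL41 and -0.35, SE 0.0871, adjusted p = 0.00437 for MRPL14. MRPL33 was at 26.4, 29.1 and 28.9 CPM in the MEC1-CTRL libraries and 26.7, 26.0 and 23.8 CPM in the MEC1-2B17 libraries. In JVM2 it was at 32.2, 31.4 and 32.2 CPM in the JVM2-CTRL libraries and 37.7, 36.7 and 34.8 CPM in the JVM2-2B17 libraries, and the difference of the 2 log2 fold changes was -0.33, SE 0.0942, adjusted p = 0.0109. MRPL39, which resembles a threonyl-tRNA synthetase, differed by -0.33, SE 0.10, adjusted p = 0.0166; the difference was -0.22 without JVM2-2B17 replicate 2, and it was not called without JVM2-CTRL replicate 2 (adjusted p = 0.0516). Neither MRPL33 nor MRPL39 was called in either line alone. The count was 9 without MEC1-CTRL replicate 2, 8 without MEC1-2B17 replicate 3 and 9 without JVM2-CTRL replicate 2. MRPS18A, MRPS18B and MRPS18C, paralogs of 1 bacterial protein of which MRPS18A sits in the large subunit, had log2 fold changes of -0.06, 0.18 and -0.06 in MEC1, only MRPS18B being called; in JVM2 they were 0.11, 0.17 and 0.04, none called.

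Members are short transcripts, and in JVM2 short transcripts outside both families had a median above 0. The median canonical length was 1260 bases for members, 781.5 for cytosolic genes, and 2665 and 3057 for all genes tested in MEC1 and JVM2. With JVM2 genes in 4 bins of length, those of neither family in the shortest bin (up to 1787 bases) had a median log2 fold change of 0.07, the 58 members there also 0.07, and the 62 cytosolic genes 0.42. The median of other genes was -0.04 in the longest bin. In MEC1 the medians of other genes were between -0.003 and 0.007 in all 4 bins. The part of length in the members' median was not tested.

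The other genes of mitochondrial translation were examined in the same fits, where 20.0% of all genes rose and 21.6% fell in MEC1, and 14.1% rose and 15.3% fell in JVM2. Of 6 mitochondrial ribosomal proteins with other symbols, 2 rose in MEC1, DAP3 (0.21), a GTP-binding protein of the small subunit, and PTCD3 (0.10), and 1 in JVM2, PTCD3 (0.22); the calls of PTCD3 were lost in 3 of the 6 fits without 1 library in each line. Of 27 assembly and rRNA modification factors, 6 rose and 2 fell in MEC1, and 2 rose and 2 fell in JVM2, a share of rises of 22.2% in MEC1 and of 7.41% in JVM2. NOA1, a GTPase of ribosome assembly, rose in both (0.45 and 0.30), as did YBEY (0.33 and 0.52), an endoribonuclease. In JVM2 the call of YBEY was lost with DESeq2 (adjusted p = 0.109) and in 4 of the 6 fits without 1 library, and that of NOA1 in 2 of the 6. NSUN4 (-0.30), an rRNA methyltransferase, and TRUB2 (-0.28), a pseudouridine synthase on chromosome 9, fell in MEC1. Of 16 translation factors, 3 rose and 5 fell in MEC1 and 1 rose in JVM2. MTIF2, the initiation factor, rose by 0.31 in MEC1, while MRRF, the recycling factor, also on chromosome 9, had a log2 fold change of -0.38. Of 19 tRNA synthetases that serve mitochondria, 7 rose and 2 fell in MEC1 (WARS2 0.29, EARS2 0.27, CARS2 -0.26), and in JVM2 FARS2 rose (0.30) and GARS fell (-0.29). The call of FARS2 was lost with DESeq2 (adjusted p = 0.0981) and in 4 of the 6 fits without 1 library. Of 9 genes of mitochondrial transcription, 4 rose in MEC1 and 1 in JVM2. Among 8 transcription factors of mitochondrial biogenesis, MYC (0.50) and PPRC1 (0.25) rose in MEC1, whereas PPRC1 (-0.46) and PPARGC1B (-0.38) fell in JVM2. Without JVM2-2B17 replicate 2, the log2 fold change of PPRC1 was -0.27, and its call was lost in 3 of the 6 fits without 1 library (PPARGC1B in 1). NRF1 was at 0.03 and 0.02 on the log2 scale, not called in either line.

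The 13 mitochondrially encoded mRNAs, which mitochondrial ribosomes translate, were lower in JVM2-2B17, where no member was called lower. Their sum was 4933 ± 336 CPM in JVM2-CTRL and 2437 ± 970 in JVM2-2B17 (SD, n = 3 each), a ratio of 0.494; 10 of 13 were called lower and 0 higher by edgeR, with a median log2 fold change of -1.01. MT-CO1 was at 1671, 1601 and 1484 CPM in the JVM2-CTRL libraries and 1011, 501 and 954 CPM in the JVM2-2B17 libraries (log2 fold change -0.95, SE 0.187, adjusted p = 0.00227). Replicate 2 of JVM2-2B17 was the lowest library, at 1317 CPM in sum against 2975 and 3019; without it the ratio was 0.608, the median -0.68 and 12 were lower. DESeq2 called 2 lower and 0 higher, 7 and 0 at an unadjusted p below 0.05. Leaving out JVM2-CTRL replicate 1, 2 or 3 gave 5, 6 and 6. In MEC1 the sum was 7771 ± 217 CPM in CTRL and 7863 ± 255 in 2B17; MT-ND4 (0.24), MT-ND1 (0.24) and MT-ND2 (0.18) rose, 0 fell by either tool, adjusted or not, and the median was 0.07. The RNAs of the mitochondrial ribosome itself, MT-RNR1 and MT-RNR2, come from the same genome. The libraries were depleted of ribosomal RNA, and whether the depletion was directed at these RNAs is not given in the sources used here. In JVM2, MT-RNR2 was at 1475, 628 and 1458 CPM in the JVM2-CTRL libraries and 537, 263 and 666 CPM in the JVM2-2B17 libraries (log2 fold change -1.28, SE 0.320, adjusted p = 0.00981), and MT-RNR1 had a log2 fold change of -2.08 (adjusted p = 0.00730); for both, JVM2-CTRL replicate 2 was the lowest CTRL library and the arms overlapped. In MEC1 MT-RNR2 rose by 0.20 and MT-RNR1 was not called (-0.03). The part of RNA quality or depletion in the JVM2 values was not tested.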

How the data were processed

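Cells of 2 stable models per line, 3 libraries each, were analysed by RNA sequencing (total RNA, rRNA depletion, paired-end). Per the labels and the study's methods, the authors trimmed reads (Trimmomatic), aligned them to hg38 (TopHat2 2.0.14) and counted them per gene (HTSeq); use of strand is not given in the sources used here. The deposited raw counts of each line were used. The tables also hold 12 columns of rounded normalized values and 6 columns each of the authors' comparisons (fold changes, p-values), which were not used.

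Genes were filtered with filterByExpr (minimum count 10, minimum total 15), scaled by TMM and tested per line with edgeR 4.0.16 (quasi-likelihood, R 4.3.3), adjusted by Benjamini-Hochberg over all genes tested; line by arm was tested over all 12 libraries. DESeq2 1.42.0 was an alternative, with other scalings, filters, the exact test with DESeq2, a replicate block and each library left out. CPM are TMM-scaled; SE is the log2 fold change over the root of F. The fits were tested on simulated data. A first simulation that also changed genes of lower count missed its own criterion of recovery for the smaller changes in JVM2 and for line by arm; the one kept changes well-counted genes only, so that recovery at lower counts is not shown. Positions and lengths are GENCODE v44 (GRCh38), promoters RefSeq; the pyrimidine run was added after values were seen, and its definition was changed once after a first result. Named genes: UGT2B17; the 6 largest called rises and falls per line; shared calls; the 4 largest differences between lines; the 3 most and least abundant; chromosome 9; MRPS18A to C; up to 2 rises and 2 falls per list, plus those chosen after their values were seen. Members and lists were chosen with earlier results of these data known. The settings for mitochondrial mRNAs and for single differences between lines were added after the data were seen.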

Additional observations from a re-analysis of the deposited data

Results flagged for a closer look

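Results are listed here because the change from CTRL to 2B17 differed between the lines in the test of line by arm (edgeR quasi-likelihood, adjusted over all genes tested). This held for 14 of the 77 members, against 32.0% of the 15130 genes tested. The difference of log2 fold changes, MEC1 minus JVM2, was -0.57 for MRPL41, -0.35 for MRPL14, -0.33 for MRPL33 and -0.33 for MRPL39, with adjusted p between 0.000452 and 0.0166. It was -0.31 for MRPS6, -0.30 for MRPS10, -0.29 for MRPL27, -0.25 for MRPL50 and -0.23 for MRPL17 (adjusted p between 0.0141 and 0.0411). Without JVM2-2B17 replicate 2 the value of MRPL39 was -0.22. For UGT2B17 it was 0.47 (adjusted p = 0.00771). MRPL41 and MRPL50 lie on chromosome 9, where the median of all genes tested was -0.33 in MEC1 and 0.00 in JVM2, and MRPL14 and MRPS10 lie on chromosome 6, where genes within 5 Mb had medians of 0.18 and 0.20 in JVM2; their part in these differences was not tested. Groups of 3 libraries were too small for a test of single outlying libraries.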

How the results depend on the processing

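The medians of members and of cytosolic genes moved by less than their own spread between replicates, except that the cytosolic median in MEC1 (0.11) was 0.10 to 0.13 with a library left out. Those of members were 0.03 to 0.04 in MEC1 and 0.07 to 0.09 in JVM2, and with libraries left out 0.02 to 0.05 and 0.05 to 0.10. In MEC1 the count of members was 12 to 15 higher and 10 to 14 lower under other settings (9 to 16 and 7 to 12 with a library left out). In JVM2 it was 2 higher with DESeq2 and with both tools, and 1 to 10 higher and 0 to 1 lower with a library left out. With a library left out, the share of all genes called higher was 16.6% to 18.7% in MEC1 and 9.63% to 16.3% in JVM2. Shared rises were 0 with DESeq2 and with both tools, and 0 to 4 (0 to 1 shared falls) with a library left out. Differences between the lines numbered 14 to 15, and 8 to 16 with a library left out. Cytosolic rises in MEC1 were 56 with DESeq2 alone and 36 with the rule requiring both edgeR's exact test and DESeq2. Mitochondrial mRNAs lower in JVM2 were 2 with DESeq2 and with both tools, and 5 to 12 with a library left out. The cause of these moves was not tested, but a library left out lowers the number of samples.

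With the replicate number as a block, 9 members rose in JVM2 and 14 rose and 11 fell in MEC1. Deviations of same-numbered libraries correlated at -0.01 to 0.13 in JVM2 (mean 0.07, against -0.04 for other pairs). In MEC1 the range was -0.07 to 0.05 (mean -0.02, against 0.01 for other pairs). With 3 libraries per arm, these values do not settle whether the numbers pair the libraries. None of the 25 members called in MEC1 or the 5 called in JVM2 changed sign under any alternative or with a library left out. The called members were chosen on these same libraries, so a stable sign was largely set by that choice. Of those not called, 11 of 52 in MEC1 and 22 of 72 in JVM2 changed sign with a library left out, among the named members in JVM2 MRPS18C (-0.059 to 0.15), MRPL41 (-0.053 to 0.015), MRPL32 (-0.0060 to 0.11) and MRPS2 (-0.048 to 0.13). With at least 10 counts asked of every library, 76 members were tested in JVM2.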
